A study of Mus musculus with 10 samples.

Results

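Mammalian Hox genes stand in 4 clusters, and the 34 genes described here are the measured members of paralog groups 1 to 12. They were chosen by name: every row of the count table whose symbol is Hoxa, Hoxb, Hoxc or Hoxd followed by a number from 1 to 12. This took 34 of 38720 symbols. The rule itself uses no measured value, but it was set with earlier results of these data known. Of these, 10 lie in the Hoxa cluster (chromosome 6, minus strand) and 9 in the Hoxb cluster (mm10 chromosome 11, 96271457 to 96368256, plus strand). Another 8 lie in the Hoxc cluster (chromosome 15, 102936757 to 103036852, plus strand) and 7 in the Hoxd cluster (chromosome 2, 74675013 to 74765142, plus strand). By paralog group, 8 are anterior (groups 1 to 3), 14 central (groups 4 to 8) and 12 posterior (groups 9 to 12). All 34 passed the filter on low counts and were tested.

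The study is about Lin28 and let-7 in the elongation of the tail end of the embryo. RNA was sequenced from the tail bud dissected from mouse embryos at embryonic day 12.5. The Lin28a-induced group (n = 4, replicates 2 to 5) carried TRE-Lin28a, a Lin28a transgene that needs the transactivator rtTA, with RLSL-rtTA and FoxD1-Cre, and was treated with doxycycline. The no-Cre control (n = 3, replicates 6 to 8) carried TRE-Lin28a and RLSL-rtTA without FoxD1-Cre and was also treated with doxycycline. The wild-type group (n = 3, replicates 1 to 3) is labelled only as wild type, with no transgene and no drug named, so that transgenes, drug and background cannot be told apart in a comparison with it. FoxD1-Cre acts where the Foxd1 gene has been active, so the induced tissue can hold cells with and without the transgene switched on. The labels do not say that each library came from a separate embryo, and p-values therefore measure the spread between these libraries.

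Hox genes encode homeodomain transcription factors that give cells their position along the head-to-tail axis. Within a cluster the genes lie in the order of their paralog groups, and low-numbered genes are switched on earlier and further forward than high-numbered ones, a rule known as collinearity. Hox proteins bind DNA together with the TALE cofactors (Pbx, Meis and Pknox proteins), Cdx factors and retinoic acid activate many of them, and Polycomb complexes keep inactive ones silent. In the tail bud the posterior genes are known to come on as the trunk gives way to the tail, and group 13 genes are known to slow axis growth. The clusters also hold the microRNA genes of the miR-10 and miR-196 families, and Lin28a blocks the maturation of the let-7 microRNAs, which pair with messenger RNAs through a seed.

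Libraries held 21762668 to 39517946 counts, of which 35848 to 65631 fell on the 34 Hox genes. Lin28a stood at 605 to 750 CPM (library-size-normalised read counts, with TMM factors) in the induced libraries and at 2.64 to 6.16 CPM in the other 6. Tail bud markers were present in every library, with Cdx2 at 40.03 to 93.5 CPM. The 3 markers of forelimb and head summed to at most 0.149 CPM, and Sox1, Olig2, Tbx4 and Isl1, from the neural and hindlimb lists, stayed at or under 0.239 CPM. Other genes of those lists were present: Sox2, made in neural tissue and in tail bud progenitors, stood at 42.7 to 81.1 CPM, Prrx1 at 3.93 to 28.6 and Pitx1 at 1.79 to 5.66 CPM. Wild-type libraries stood apart in composition: mitochondrial transcripts took 1.85% to 2.69% of their counts against 0.446% to 0.690% elsewhere. By Xist and Ddx3y counts, 1 Lin28a-induced library (replicate 5) and 1 no-Cre library (replicate 7) were female and the other 8 male. Wild-type replicate 2 differed from replicates 1 and 3. Its 11 tail bud markers summed to 333 CPM, against 728 and 751 CPM in the other wild-type libraries, 840 to 1190 in the Lin28a-induced and 868 to 894 in the no-Cre libraries. In this bulk tissue, fewer cells of a type and less RNA per cell cannot be told apart.

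The sequences below are shown because the manipulated factor acts on let-7 and because Hoxb1 and Hoxd1, which differed most from wild type, hold let-7 seed matches. The mature microRNAs are from RefSeq (GRCm38.p6), 5′ to 3′, with the seed (bases 2 to 8) in capitals. The let-7 seed is shared by let-7a and let-7g. The miR-10 pair share a seed and lie inside the Hoxb and Hoxd clusters. The miR-196 seed is the let-7 seed moved along by a base.
let-7a: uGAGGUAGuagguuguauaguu
let-7g: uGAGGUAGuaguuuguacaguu
miR-10a: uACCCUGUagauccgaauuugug
miR-10b: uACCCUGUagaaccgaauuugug
miR-196a: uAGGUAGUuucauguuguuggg
miR-196b: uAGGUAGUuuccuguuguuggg

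Each messenger RNA site is shown 5′ to 3′ on the gene's strand, with the 7 bases complementary to the seed in capitals, and with its mm10 position.
Hoxb1 let-7 site, chr11:96368220-96368226, plus strand: tctttgtatctgcaaCTACCTCa
Hoxd1 let-7 site, chr2:74764881-74764887, plus strand: tttaaagtggcgctcCTACCTCt
Hoxc11 let-7 site, chr15:102957265-102957271, plus strand: tgcaaagtccaaatcCTACCTCc
Hoxd1 miR-10 site, chr2:74764945-74764951, plus strand: tagcggaacaaatccACAGGGTa
Hoxb1 miR-196 site, chr11:96368219-96368225, plus strand: ctctttgtatctgcaACTACCTc

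A match is a description of letters in annotated 3′ UTRs, not evidence of pairing. The let-7 match CTACCTC occurred in 6 of the 34 members (17.6%), against 9.83% of the 19514 genes searched, with Hoxa11, Hoxb1, Hoxb4, Hoxc11 and Hoxd1 among them. The miR-10 match ACAGGGT occurred in 11.8% of members, Hoxa3, Hoxb3 and Hoxd1 among them, and in 13.4% of genes. The miR-196 match ACTACCT occurred in 9 members (26.5%, against 6.62% of genes), and Hoxa7 held 4 such matches in its 1219-base UTR. The miR-196 and let-7 matches overlap in Hoxb1, where the sites above begin a base apart.

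Posterior genes were the most abundant members in the Hoxb, Hoxc and Hoxd clusters. On the scale of CPM per kb of annotated exon, averaged over all 10 libraries, Hoxb9 had the highest level of the 34 (72.9), followed by Hoxd12 (49.96), Hoxd11 (49.3) and Hoxc12 (47.7). Hoxb9, a posterior gene at the 5′ end of the measured Hoxb series, stood at 77.1 ± 4.81 (SD, n = 4) CPM per kb in the Lin28a-induced group, 76.4 ± 4.15 (n = 3) in no-Cre and 63.8 ± 12.3 (n = 3) in wild type. Its range lay above that of its nearest neighbour in level, Hoxb6, in every group. Hoxc12 also led its cluster without overlapping the second gene, Hoxc10. Hoxd12 and Hoxd11 overlapped in level in some group, as did Hoxd11 and Hoxd10. In wild type the order differed, with Hoxd10 (51.9 to 56.02 CPM per kb) above Hoxd12 (27.9 to 50.6) in every library.

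In the Hoxa cluster the order was different, since the central gene Hoxa6 led with 33.2 ± 4.47 (n = 4), 26.3 ± 0.429 (n = 3) and 38.8 ± 4.36 (n = 3) CPM per kb in Lin28a-induced, no-Cre and wild-type libraries. Its neighbour in level, Hoxa10, overlapped with it in some group, and the posterior Hoxa11 was only the seventh of 10. The lowest levels of the 34 were those of Hoxb2 (2.86 CPM per kb over all libraries) and Hoxa4 (3.04). Lengths matter for this order. With the length of the longest coding transcript in place of all annotated exons, Hoxa10 came before Hoxa6, and Hoxd11 (195, 165 and 198 CPM per kb in the 3 groups) came before Hoxd12 and also before Hoxb9 (77.1, 76.4 and 63.8). Exon sharing also limits some levels: 62.4% of the Hoxd3 exons are shared with annotated transcripts on the same strand, Hoxd4 among them. The opposite strand carries Hoxb3os over 52.9% of Hoxb3 and Hoxa11os over 35.0% of Hoxa11, and the strand setting of the counting is not given in the sources used here.

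**Figure D1:**
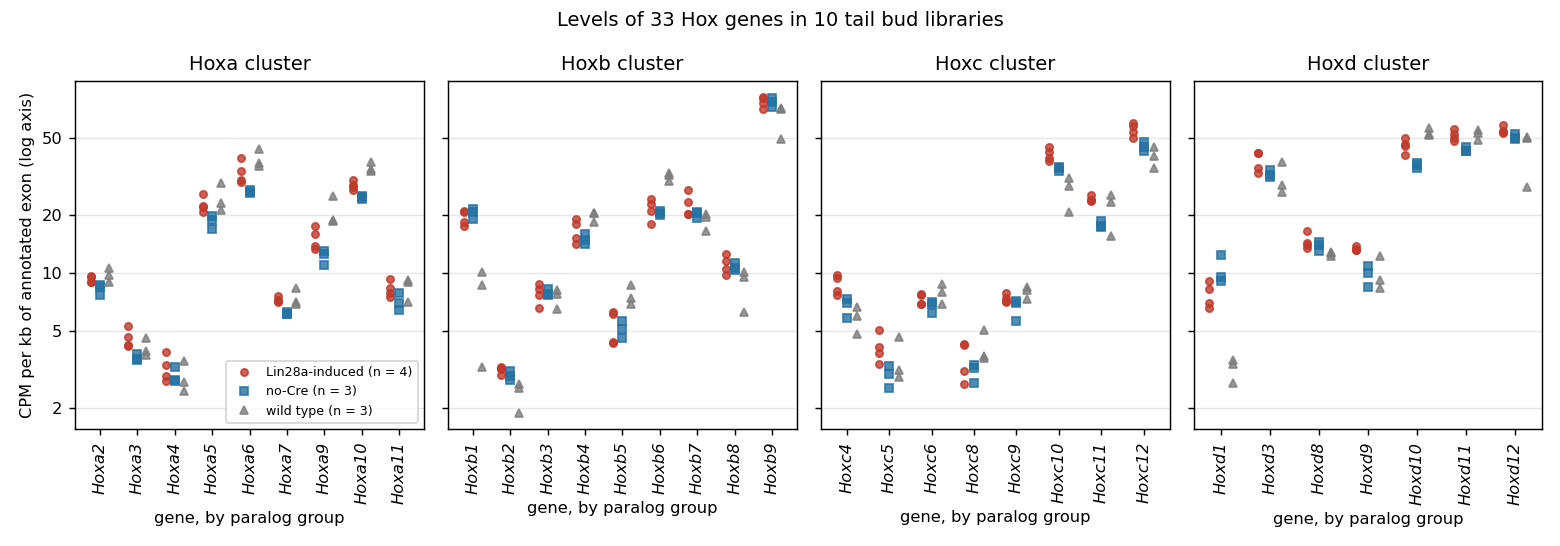
Level of 33 of the 34 genes in CPM per kb of annotated exon (log axis), by cluster and paralog group, with 1 point per library for the Lin28a-induced (n = 4), no-Cre (n = 3) and wild-type (n = 3) groups. Hoxb9 and Hoxc12 sit highest in their clusters in each group, Hoxd12 is highest in its cluster by mean in Lin28a-induced and no-Cre libraries but lies under Hoxd10 in wild type, and Hoxb1 and Hoxd1 are the genes whose wild-type points lie furthest below the rest.

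Lin28a-induced and no-Cre embryos both carried the transgenes and received doxycycline, so their comparison asks what differs when FoxD1-Cre, and with it Lin28a, is present. Differences were small and mostly in 1 direction. Of the 34 members, 3 rose and none fell (edgeR quasi-likelihood test, Benjamini-Hochberg adjusted p under 0.05), with Hoxd10 and Hoxd11 among the 3. That is 8.82% of members higher, where 1.76% of all 16340 tested genes were higher and 1.15% lower. The fold change was positive for 31 of the 34, with a median log2 fold change of 0.20, where the median over all genes was -0.0008 and 49.7% were positive. In 17 members every Lin28a-induced library lay above every no-Cre library, and in 1, Hoxd1, every one lay below. Over all genes these shares were 12% and 11.4%. At an unadjusted p under 0.05 there were 16 members, of which Hoxd1 alone was negative, and 2658 of the 16340 tested genes.

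Hoxd10, a posterior gene known for its part in patterning the lumbar spinal cord and the hindlimb, is annotated on chromosome 2 from 74691924 to 74695105. It stood at 91.1, 84.1, 82.6 and 74.2 CPM in Lin28a-induced replicates 2 to 5 and at 63.6, 67.3 and 65.6 CPM in no-Cre replicates 6 to 8. The groups did not overlap, and the rise was 1.27-fold (log2 fold change 0.34 ± 0.06 SE, edgeR adjusted p = 0.0125). Wild-type libraries were higher still, at 102, 95.5 and 94.2 CPM. Hoxd11, a posterior gene of limb and kidney patterning next to Hoxd10, was at 235, 210, 219 and 203 CPM against 180, 181 and 188 CPM. This 1.18-fold rise (0.24 ± 0.06, edgeR adjusted p = 0.0466) lay just inside the threshold, while wild-type libraries, at 231, 205 and 223 CPM, lay within the induced range.

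**Figure D2:**
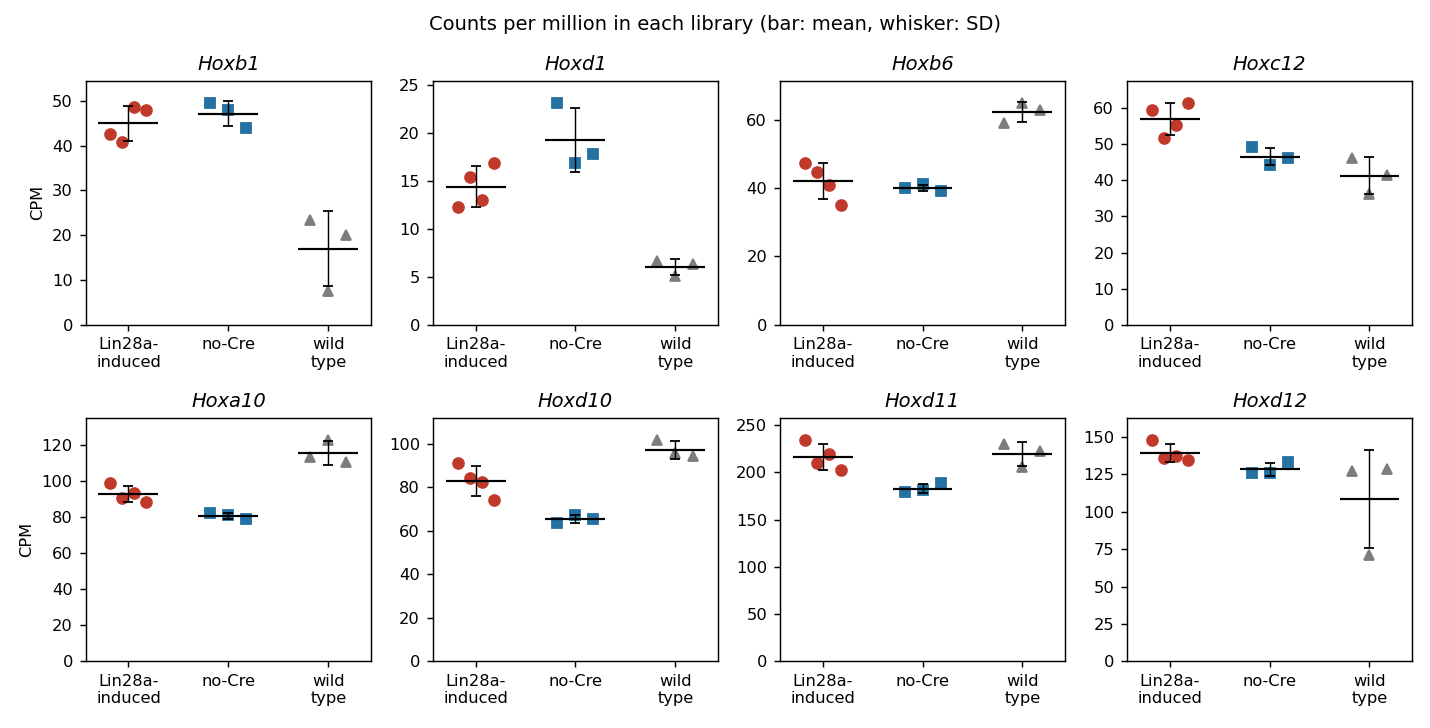
CPM of 8 members in every library of the 3 groups, with the mean as a bar and the SD as a whisker; each axis starts at 0. Hoxa10, Hoxc12, Hoxd10, Hoxd11 and Hoxd12 show Lin28a-induced libraries above no-Cre libraries, and Hoxb1 and Hoxd1 show wild type below both other groups.

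The clusters differed in how many members shifted. In the Hoxa cluster all 10 fold changes were positive (median log2 0.26), with no overlap between the groups in 8. All 8 Hoxc members were positive (median 0.27, 5 without overlap), and 6 of 7 Hoxd members (median 0.21, 4 higher without overlap). In the Hoxb cluster 7 of 9 were positive with a median of 0.05, no member separated the groups, and none passed an unadjusted p under 0.05. This difference between clusters is described and was not tested. By class, all 12 posterior members (median 0.25) and all 14 central ones (median 0.16) were positive, against 5 of 8 anterior ones. Among members that did not pass, the smallest adjusted p-values (edgeR) were those of Hoxd9 (0.45 ± 0.12, adjusted p = 0.0598), Hoxa10 (0.20 ± 0.05, adjusted p = 0.0678), Hoxc12 (0.29 ± 0.08, adjusted p = 0.0793) and Hoxa3 (0.33 ± 0.09, adjusted p = 0.0848). Hoxd1 went the other way, at 12.3, 15.4, 12.98 and 16.8 CPM in Lin28a-induced and 23.1, 16.9 and 17.8 CPM in no-Cre libraries (-0.42 ± 0.14, edgeR adjusted p = 0.126), a difference that did not pass.

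The count of 3 depended on single libraries. It was 0 without no-Cre replicate 6, 7 or 8 in turn, and 1 without Lin28a-induced replicate 4 or 5 (Hoxd10 in each case). It was 12 without wild-type replicate 2, whose spread enters the shared estimate. Calls over all genes moved in the same way. The 288 genes called higher became 91, 73 and 74 without no-Cre replicates 6, 7 and 8, and 776 without wild-type replicate 2. Fitting the 2 groups alone gave 14 members and DESeq2 gave 9, all higher. No setting called a member lower in this comparison, and Hoxd11 lost its call with DESeq2's size factors, with no filter on low counts and with sex as a covariate (edgeR adjusted p = 0.0705 in the last). Some marker sums also differed between these groups. The 6 neural genes summed to 48.6 to 61.4 CPM in Lin28a-induced and 67.6 to 82.4 CPM in no-Cre libraries, mostly from Sox2 (-0.43 ± 0.11, edgeR adjusted p = 0.0700). The 4 kidney and stroma genes summed to 13.2 to 16.5 and 17.5 to 20.3 CPM. They include Foxd1, the gene named in FoxD1-Cre, which only the Lin28a-induced group carried. Foxd1 averaged 5.28 CPM in Lin28a-induced and 8.75 CPM in no-Cre libraries (-0.72 ± 0.19, edgeR adjusted p = 0.0572). Neither sum overlapped between the groups, no gene of either list passed the test, and their part in the Hox values was not tested.

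**Figure D3:**
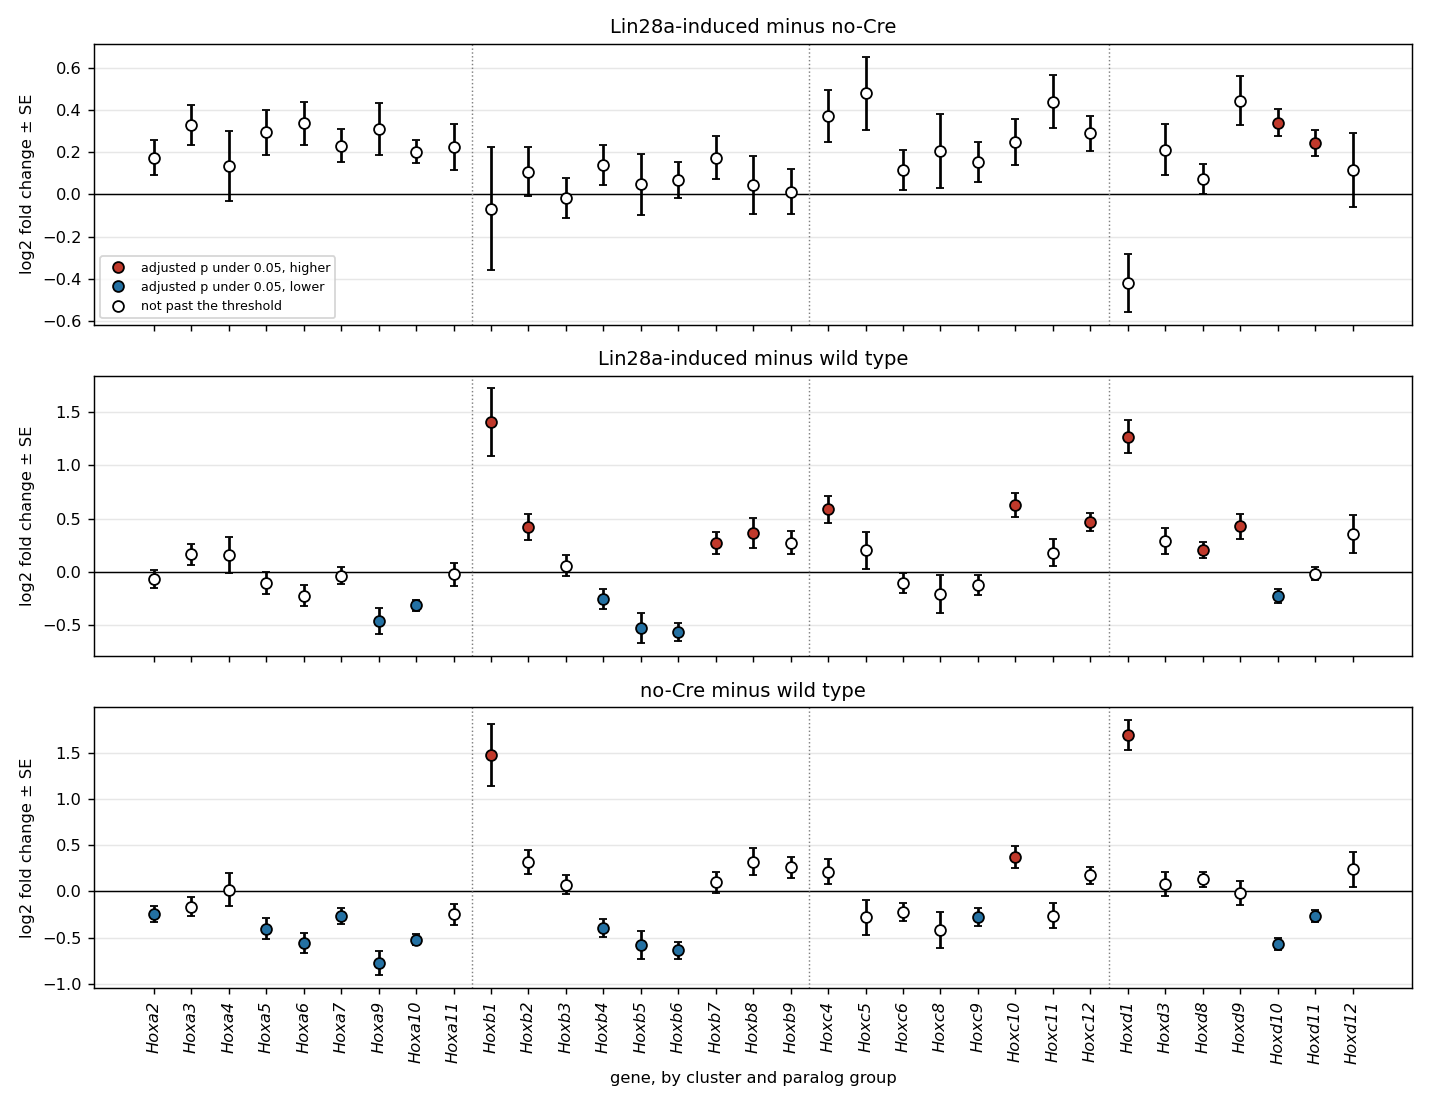
Log2 fold change ± SE for 33 of the 34 genes in the 3 comparisons, by cluster and paralog group; red points are higher and blue points lower at an edgeR adjusted p under 0.05, and white points did not pass. Points of the Hoxb cluster sit near 0 between Lin28a-induced and no-Cre, and Hoxb1 and Hoxd1 are the highest points in both comparisons with wild type.

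The comparisons with wild type ask how either transgenic group differs from embryos labelled only as wild type. Transgenes, drug and background cannot be told apart in them. They share the 3 wild-type libraries, so their values are given side by side and not as independent evidence. Lin28a-induced embryos had 11 members higher (32.4%) and 6 lower (17.6%), where 24.3% of all genes were higher and 25.0% lower. No-Cre embryos had 4 higher (11.8%) and 12 lower (35.3%), where 21% and 21.4% of all genes were higher and lower. Median log2 fold changes over the 34 were 0.16 and -0.19, against -0.02 for all genes in each comparison. Beside these, tail bud markers differed: 4 of 11 were higher and none lower than in wild type in each comparison. Of the genes listed for gut endoderm and cloaca, Foxa1, Foxa2, Shh and Sox17 were higher and Epcam lower than in wild type in both. The cells that made these transcripts were not identified. The 5 genes of this list summed to 134 to 182 CPM in wild type and 99.2 to 118 CPM elsewhere. Epcam, at 122 to 173 CPM in wild type and 63.8 to 73.96 CPM elsewhere, made up most of this sum. Hindlimb and genital tubercle genes summed to 22.7 to 31.6 CPM in wild type, 7.09 to 26.3 in Lin28a-induced and 11.9 to 14.2 in no-Cre libraries. Prrx1 made up most of this sum and passed in neither comparison (edgeR adjusted p = 0.102 and 0.0578). Pitx1, of the same list, went the other way and was higher in no-Cre than in wild-type libraries (1.05 ± 0.25, edgeR adjusted p = 0.00434). It did not pass for Lin28a-induced libraries (0.31 ± 0.24, edgeR adjusted p = 0.302). The part of these marker differences in the Hox results was not tested.

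Hoxb1 and Hoxd1 were higher than wild type in both transgenic groups. Hoxb1, which sets the identity of a hindbrain segment and is also made in the early tail bud, lies on chromosome 11 from 96365752 to 96368256. It stood at 42.6, 40.8, 48.7 and 48.0 CPM in Lin28a-induced, 49.5, 48.0 and 44.0 CPM in no-Cre and 23.5, 7.54 and 20.1 CPM in wild-type replicates 1 to 3. All transgenic libraries lay above all wild-type ones, by 2.65-fold (log2 1.41 ± 0.32, edgeR adjusted p = 0.00718) and 2.78-fold (1.47 ± 0.33, adjusted p = 0.00877). Wild-type replicate 2 had the lowest value; without it the log2 fold changes were 1.04 and 1.12 in the same order, both past the threshold.

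Hoxd1, the group 1 member of the Hoxd cluster (chromosome 2, 74762980 to 74765142), was at 6.60, 5.03 and 6.29 CPM in wild type, under every other library. It was 2.41-fold higher in Lin28a-induced (1.27 ± 0.15, edgeR adjusted p = 1.88e-05) and 3.22-fold higher in no-Cre libraries (1.69 ± 0.16, adjusted p = 3.40e-06). The Hoxb1 and Hoxd1 differences between the transgenic groups did not pass.

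Central members went lower than wild type more often than higher in the no-Cre libraries, with 6 of 14 lower (42.9%) and none higher. Over all tested genes 21.4% were lower and 21% higher. In the Lin28a-induced libraries 3 of the 14 were lower (21.4%) and 4 higher (28.6%), near the 25.0% and 24.3% of all tested genes. Hoxb6, a trunk-level gene on chromosome 11 from 96292476 to 96301569, stood at 58.9, 64.9 and 62.9 CPM in wild type. It was at 47.3, 44.9, 40.9 and 35.0 CPM in Lin28a-induced libraries and 39.99, 41.1 and 39.2 CPM in no-Cre libraries. No transgenic library reached the wild-type range, and the log2 fold changes were -0.57 ± 0.08 (edgeR adjusted p = 0.000104) and -0.63 ± 0.09 (adjusted p = 0.000114). Its neighbour Hoxb5, known for its part in enteric and lung development, was at 19.3, 24.1 and 20.6 CPM in wild type and at 12.1 to 17.5 CPM in the other 7 libraries (-0.53 ± 0.14, adjusted p = 0.00718, and -0.58 ± 0.15, adjusted p = 0.00833). Hoxa6 was lower than wild type in the no-Cre libraries, with 23.4, 22.6 and 23.0 CPM against 32.4, 38.3 and 31.1 CPM in wild type (-0.56 ± 0.11, adjusted p = 0.00106). In Lin28a-induced libraries Hoxa6 was at 29.5, 34.4, 26.5 and 25.8 CPM and did not pass (-0.22 ± 0.10, adjusted p = 0.0768).

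Posterior members split. Hoxa10, a gene of lumbar vertebrae and reproductive tract patterning (chromosome 6, 52231197 to 52240854), stood at 113, 123 and 110 CPM in wild type, 98.7, 90.7, 93.0 and 88.2 CPM in Lin28a-induced and 81.9, 80.8 and 78.8 CPM in no-Cre libraries. The 3 groups did not overlap, with the induced libraries between the others (-0.32 ± 0.05, edgeR adjusted p = 0.000338, and -0.52 ± 0.06, adjusted p = 1.56e-05, against wild type). Hoxd10 followed the same order, at -0.23 ± 0.06 (adjusted p = 0.00860) in Lin28a-induced and -0.57 ± 0.07 (adjusted p = 2.50e-05) in no-Cre libraries. Hoxa9, a posterior gene also active in blood stem cells, was at 104, 140 and 104 CPM in wild type and lower in both groups (-0.46 ± 0.12, adjusted p = 0.00942, and -0.77 ± 0.13, adjusted p = 0.000969).

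In the Hoxc cluster the posterior members differed among themselves. Hoxc10, a gene of lumbar identity, rose against wild type in both groups (0.63 ± 0.11, edgeR adjusted p = 0.000722, and 0.38 ± 0.12, adjusted p = 0.0235). Hoxc12 (chromosome 15, 102936757 to 102938609) was at 59.4, 51.7, 55.4 and 61.4 CPM in Lin28a-induced, 49.1, 44.3 and 46.3 CPM in no-Cre and 46.2, 36.1 and 41.6 CPM in wild-type libraries. The induced libraries lay above all others (0.46 ± 0.08 against wild type, adjusted p = 0.000474), and no-Cre libraries did not pass (0.17 ± 0.09, adjusted p = 0.131). Hoxc11, which lies between them, passed in neither comparison (0.18 ± 0.13, edgeR adjusted p = 0.257, and -0.26 ± 0.14, adjusted p = 0.142). Hoxb9, the most abundant member per kb of annotated exon, was at 207, 210, 195 and 183 CPM in Lin28a-induced, 198, 185 and 207 CPM in no-Cre and 183, 128 and 182 CPM in wild-type libraries, with no comparison past the threshold. Hoxd12 showed the same single low library: 148, 136, 137 and 135 CPM, then 126, 126 and 133 CPM, then 127, 70.8 and 128 CPM. Replicate 2 of wild type is the low value in both genes, and no Hoxd12 comparison passed either.

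In the Hoxb cluster, Hoxb2, a hindbrain gene, ranged over 10.4 to 11.4 CPM in Lin28a-induced, 9.7 to 10.8 in no-Cre and 6.57 to 9.3 in wild-type libraries (0.42 ± 0.12, edgeR adjusted p = 0.0109 for Lin28a-induced). Hoxb7 (0.27 ± 0.10, edgeR adjusted p = 0.0436) and Hoxb8 (0.37 ± 0.14, edgeR adjusted p = 0.0466), central genes of the trunk, were also higher in Lin28a-induced than in wild-type libraries. Hoxb4 was lower in both groups (-0.26 ± 0.09, edgeR adjusted p = 0.0352, and -0.40 ± 0.10, edgeR adjusted p = 0.00657). The neighbours Hoxb4, Hoxb5 and Hoxb6 were thus called lower, and Hoxb7 and Hoxb8 higher, in the Lin28a-induced libraries. For Hoxb4, Hoxb7 and Hoxb8, however, Lin28a-induced and wild-type libraries overlapped. Each of these genes lost its call in that comparison when only the 2 groups were fitted. Hoxc4, the lowest-numbered gene of the Hoxc cluster, ranged over 19.7 to 25.2 CPM in Lin28a-induced, 15.1 to 18.9 in no-Cre and 12.3 to 17.1 in wild-type libraries (0.59 ± 0.12, edgeR adjusted p = 0.00163 for Lin28a-induced). Hoxd8 (0.20 ± 0.07, edgeR adjusted p = 0.0334) and Hoxd9 (0.43 ± 0.12, edgeR adjusted p = 0.00852) were higher in Lin28a-induced libraries, while their neighbour Hoxd10 was lower. In no-Cre libraries Hoxa2 (-0.24 ± 0.09, edgeR adjusted p = 0.0429), Hoxa5 (-0.40 ± 0.11, edgeR adjusted p = 0.0117), Hoxa7 (-0.27 ± 0.08, edgeR adjusted p = 0.0208) and Hoxc9 (-0.28 ± 0.10, edgeR adjusted p = 0.0407) were lower than in wild type. With these, 6 of the 10 Hoxa members (60%) were lower in no-Cre libraries, where 21.4% of all tested genes were lower.

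Wild-type replicate 2 lay outside the range of the other 2 wild-type libraries for most members. It lay above in 8 and below in none of the 10 Hoxa members, above in 2 and below in 7 of the 9 Hoxb members, above in 3 and below in 4 of the 8 Hoxc members, and above in 2 and below in 4 of the 7 Hoxd members. By class it lay above in 3 and below in 4 anterior, above in 8 and below in 4 central, and above in 4 and below in 7 posterior members. Among others, it was low for Hoxb1, Hoxb9, Hoxc10, Hoxc11, Hoxc12 and Hoxd12 and high for Hoxa5, Hoxa9, Hoxd3 and Hoxd9. Without it, the counts of members were 11 higher and 6 lower for Lin28a-induced, and 4 higher and 12 lower for no-Cre, against wild type. The genes were not the same: in the Lin28a-induced comparison Hoxb7, Hoxb8 and Hoxd8 were no longer called higher, and Hoxa3, Hoxc5 and Hoxd3 were.

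Summed over the 34 genes, Hox transcripts took 0.177% ± 0.0115 (SD, n = 4) of Lin28a-induced, 0.154% ± 0.000662 (n = 3) of no-Cre and 0.166% ± 0.00375 (n = 3) of wild-type counts. The summed level was 1884, 1798, 1702 and 1668 CPM in Lin28a-induced, 1560, 1552 and 1539 CPM in no-Cre and 1709, 1597 and 1646 CPM in wild-type libraries. Lin28a-induced libraries all lay above no-Cre libraries and overlapped with wild type. Posterior genes held 60.4% ± 1.28, 59.6% ± 0.846 and 61.5% ± 2.66 of these counts in the 3 groups, within each other's spread. The anterior share was 19.0% ± 0.5001, 19.7% ± 0.458 and 15.3% ± 1.37, so that wild type lay under both other groups. Not all anterior members followed this. Hoxb1 and Hoxd1 averaged 47.2 and 19.2 CPM in no-Cre and 17.0 and 5.97 CPM in wild-type libraries. Hoxa2 was lower in no-Cre than in wild-type libraries, and Hoxa3, Hoxb3 and Hoxd3 passed in neither comparison with wild type. The central share was 20.6% ± 1.05, 20.7% ± 0.463 and 23.2% ± 1.37. The Hoxb cluster held 25.6% ± 0.765 of Lin28a-induced and 28.4% ± 0.710 of no-Cre Hox counts, with no overlap between these groups. These shares are descriptions with no test, and a share falls when others rise.

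**Figure D4:**
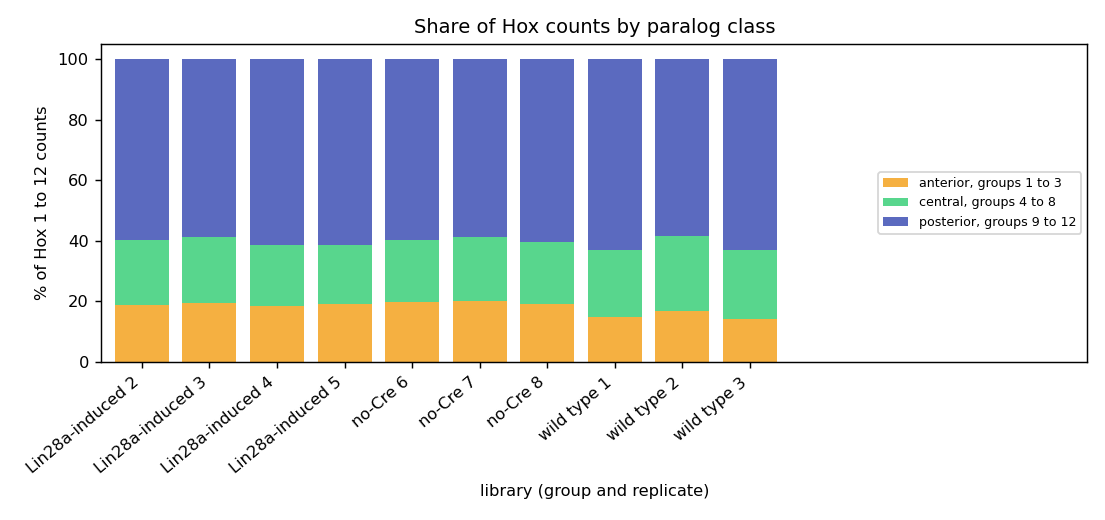
Share of the counts on the 34 Hox genes that fell on anterior (groups 1 to 3), central (groups 4 to 8) and posterior (groups 9 to 12) members, in % for each of the 10 libraries as stacked bars. The posterior part is 58.4% to 63.1% in every library, and the anterior part is smaller in the 3 wild-type libraries.

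Between Lin28a-induced and no-Cre libraries, 1 of the 6 members with a let-7 match rose, 4 had positive fold changes, and the median was 0.18, beside 0.20 for all 34. Hoxc11 was at 0.44 ± 0.13, Hoxa11 at 0.22 ± 0.11, Hoxb4 at 0.14 ± 0.09, Hoxb1 at -0.07 ± 0.29 and Hoxd1 at -0.42 ± 0.14, and these 5 did not pass. Among the 9 members with a miR-196 match 8 were positive, with a median of 0.21. The 4 with a miR-10 match had a median of 0.16. Precursor genes of these microRNAs gave almost no signal in these libraries of longer RNA: Mir10a and Mir196b had 0 counts throughout, while Mir196a-1, at 3.28 to 8.27 CPM, was lower in both transgenic groups than in wild type (-0.66 ± 0.20, edgeR adjusted p = 0.0154, and -0.89 ± 0.22, adjusted p = 0.00566).

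Sequence upstream of the start was at hand for 19 members (21 windows of 250 bases before and 50 after a RefSeq start, GRCm38.p6). Median GC content was 57.3%, against 52.7% of 32851 windows. The Hox-Pbx motif TGATNNAT was found on either strand in 19.0% of member windows and 8.85% of all. The Cdx motif TTTATG was found in 19.0% and 11.9%, and the letters AGGTCA in 28.6% and 16.3%. AGGTCA is only part of a retinoic acid receptor site, so a match is not a complete receptor element. The 250 bases before the start are printed for Hoxb1 and Hoxd10. Hoxb1 differed most between Lin28a-induced and wild-type libraries, and Hoxd10 had the smallest adjusted p against no-Cre. Capitals mark the Hox-Pbx match in Hoxb1 and the AGGTCA match, on the other strand, in Hoxd10. Hoxb1 is known to be activated by its own protein with Pbx.
Hoxb1, chr11:96365508-96365757, plus strand: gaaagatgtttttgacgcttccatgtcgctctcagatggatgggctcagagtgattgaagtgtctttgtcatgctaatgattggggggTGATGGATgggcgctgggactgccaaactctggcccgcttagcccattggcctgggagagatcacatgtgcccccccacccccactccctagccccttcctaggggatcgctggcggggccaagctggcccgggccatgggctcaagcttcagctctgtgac
Hoxd10, chr2:74691641-74691890, plus strand: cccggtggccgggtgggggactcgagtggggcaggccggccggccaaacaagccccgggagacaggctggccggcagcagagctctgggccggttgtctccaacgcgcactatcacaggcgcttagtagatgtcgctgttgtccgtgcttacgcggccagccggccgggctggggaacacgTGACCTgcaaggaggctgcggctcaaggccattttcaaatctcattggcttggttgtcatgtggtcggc

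No Hox13 gene passed between Lin28a-induced and no-Cre libraries. Hoxc13, next to Hoxc12, was at 212, 214, 225 and 227 CPM against 181, 169 and 182 CPM (0.31 ± 0.11, edgeR adjusted p = 0.162). Hoxa13 was at -0.08 ± 0.06, Hoxb13 at -0.03 ± 0.20 and Hoxd13 at 0.12 ± 0.16. Against wild type, Hoxc13 rose in both groups (0.63 ± 0.11, adjusted p = 0.000475, and 0.32 ± 0.11, adjusted p = 0.0365), and Hoxa13 rose in no-Cre libraries (0.22 ± 0.07, adjusted p = 0.0189). Hox13 sums in wild-type replicate 2 were 553 CPM, beside 884 in each of the other 2 wild-type libraries. The cluster-end genes Evx1 and Evx2, homeobox genes beside Hoxa13 and Hoxd13, did not pass between Lin28a-induced and no-Cre libraries (0.09 ± 0.20 and 0.09 ± 0.37). Evx2, singled out after its values were seen, was at 49.6, 21.3 and 51.2 CPM in wild type and at 7.06 to 14.8 CPM in the other 7 libraries. It was lower in both transgenic groups, with no overlap (-1.90 ± 0.35, edgeR adjusted p = 0.00262, and -1.99 ± 0.39, adjusted p = 0.00444).

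Noncoding transcripts of the clusters were also measured. Of 4 tested, 2 rose between Lin28a-induced and no-Cre libraries, where 1.76% of all tested genes rose. Hoxa11os, which lies opposite Hoxa11, was at 60.5, 56.3, 49.5 and 51.0 CPM against 40.6, 43.8 and 41.01 CPM (0.38 ± 0.07, edgeR adjusted p = 0.0149). Hotair, a noncoding RNA of the Hoxc cluster, was at 29.4, 25.6, 23.5 and 23.5 CPM against 19.8, 19.1 and 19.8 CPM (0.38 ± 0.09, adjusted p = 0.0462). Neither group overlapped the other in these 2 genes. Hoxb3os did not pass (-0.07 ± 0.09, adjusted p = 0.795).

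Among 18 Polycomb genes, 2 rose and none fell between Lin28a-induced and no-Cre libraries, where 1.76% of all tested genes rose and 1.15% fell. Bmi1, a subunit of the complex that marks histone H2A, was at 84.3, 90.8, 89.8 and 101 CPM against 61.2, 61.7 and 61.1 CPM (0.58 ± 0.07, edgeR adjusted p = 0.000537). Mtf2, which brings the H3 methyltransferase complex to CpG-rich DNA, was at 197, 196, 200 and 195 CPM against 145, 141 and 135 CPM (0.49 ± 0.07, adjusted p = 0.00157). Every induced library lay above every no-Cre library in both genes. None of 9 TALE cofactors passed, with Meis2 at -0.23 ± 0.07 (adjusted p = 0.122). None of 12 Cdx and upstream signal genes passed, the nearest being Cdx1 (0.84 ± 0.30, adjusted p = 0.172). None of 9 Trithorax and demethylase genes passed, the nearest being Dot1l (0.18 ± 0.05, adjusted p = 0.0814). Against wild type, in the same order of groups, 9 and 5 Polycomb genes were higher and 3 and 4 lower, 3 and 2 TALE cofactors higher and 2 and 1 lower, and 5 and 5 Cdx and upstream genes higher and 2 and 2 lower. Of the Trithorax list, 4 and 4 were higher and none lower. Over all tested genes, 24.3% and 21% were higher and 25.0% and 21.4% lower. Cdx2, an activator of central and posterior Hox genes that was singled out after its values were seen, was at 54.0, 42.5 and 40.03 CPM in wild type and at 70.2 to 93.5 CPM in the other 7 libraries. It was higher in both transgenic groups (0.86 ± 0.10, edgeR adjusted p = 2.67e-05, and 0.70 ± 0.11, adjusted p = 0.000291).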

How the data were processed

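RNA-seq read counts per gene symbol, deposited by the authors as 1 table for 10 libraries, were used as whole-number counts. The submitters' processing notes name STAR 2.3.1z4, featureCounts, DESeq2 and mm10, with no role given; annotation release and strand setting: not given in the sources used here. Genes were kept with edgeR's filterByExpr (16340), scaled by TMM and tested with edgeR 4.0.16 (R 4.3.3) quasi-likelihood fits of the 3 groups together, with Benjamini-Hochberg adjustment over all tested genes and a threshold of 0.05. CPM are counts scaled to a common library size with TMM factors. Lengths, UTRs and positions come from GENCODE M21 (mm10), which matched all 34 symbols; microRNA and upstream sequences come from RefSeq (GRCm38.p6). Hoxd4 was not analysed here. Values of 1 member and 1 cofactor gene are not reported here; counts and medians include them. Values were given for every library for members past the threshold against no-Cre, for the 3 smallest p-values in each direction against wild type, and for the most abundant gene of each cluster; others named are examples. The members and gene lists were chosen with earlier results of these data known. On simulated counts for the comparison of Lin28a-induced with no-Cre (16340 genes), recovery was 19 of 78 at 1.25-fold, 40 of 62 at 1.5-fold and 48 of 60 at 2-fold, with 9 false calls. Alternatives were DESeq2 1.42.0, its size factors, other filters, 2-group fits, sex as a covariate, library sizes without mitochondrial and globin genes, a replicate block and leaving out each library.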

Additional observations from a re-analysis of the deposited data

How the results depend on the processing

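Between Lin28a-induced and no-Cre libraries the count of members called higher was 3, against 9 by DESeq2 and 14 when only the 2 groups were fitted, and it ranged from 0 to 12 when each library was left out in turn; members called lower stayed at 0. Over all genes the calls were 288 higher and 188 lower, against 484 and 456 by DESeq2 and 912 and 879 in the 2-group fit. With each library left out in turn, they ranged from 73 to 776 higher and from 31 to 706 lower. Hoxd10 kept its call in 7 of 10 fits that left out a library and Hoxd11 in 2. Against wild type, leaving out a library gave 8 to 12 higher and 5 to 7 lower for Lin28a-induced, and 3 to 7 higher and 8 to 13 lower for no-Cre. With the replicate block, which paired Lin28a-induced and wild-type replicates 2 and 3, 9 members were higher and 2 lower. Hoxb1, Hoxa10, Hoxb5 and Hoxd10 were among the members that lost their calls with the block. Same-numbered libraries did not deviate together (r = -0.03 and -0.08). These 2 values cannot decide whether the numbers mark a shared litter or day, which the labels do not state. Per kb of exon, the anterior share was 14.6%, 15.5% and 11.2% in Lin28a-induced, no-Cre and wild-type libraries, the central share 25.7%, 25.6% and 29.96%, and the wild-type posterior share 58.8%. Of the values for named members under the alternatives, 325 kept direction and call, 23 lost the call and none reversed; the cause was not tested. Small folds are at the limit of this design, which recovered 19 of 78 simulated 1.25-fold changes.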
